A study of Mus musculus with 176 samples.

Results

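The Bcl2 family decides at the outer membrane of the mitochondrion whether a cell lives. Survival members (Bcl2, Bcl2l1, Mcl1 and the copies of Bcl2a1) hold back the effectors Bax and Bak1, which open pores in that membrane and let cytochrome c out, and BH3-only members such as Bcl2l11 (Bim) and Bid release or trigger the effectors. In T cells, cytokines such as IL-2 and IL-7 and engagement of the antigen receptor are known to set the levels of these genes, and Bim is known for the loss of activated T cells once a response ends. Here 9 of these genes were followed in single CD4 T cells: Bcl2, Bcl2l1, Mcl1, Bcl2a1b and Bcl2a1d as survival genes, and Bax, Bak1, Bcl2l11 and Bid as death genes. They were taken by name from the 53546 gene names of the count table.

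Female C57BL/6J mice, an inbred strain, had received the peptide P6 of apolipoprotein B, the protein of low-density lipoprotein, at 7 and 9 weeks of age by injection into muscle, first in complete and then in incomplete Freund's adjuvant. At 11 weeks, antigen-experienced CD4 T cells (sorted in part as TCRβ+ CD4+ with high CD44) were taken from the lymph nodes that drain the injected muscle (inguinal and para-aortic), and 176 of them were sorted into single wells, 32 as P6+ because they bound 2 tetramers of the peptide on the class II molecule I-Ab, and the others as P6- because they bound neither. All 32 P6+ cells came from 1 mouse, the P6- cells were sorted from a further part of the sample without a statement of the mouse, and all cells of both groups shared the immunization, so the P6- cells are no unimmunized control. Full-length cDNA of each cell was sequenced (Smart-Seq2), and reads were counted per gene.

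Cells passed with 500000 reads or more, 2000 genes or more and less than 10% of their reads from mitochondrial genes, which 161 cells did, all 32 P6+ cells and all but 15 of the P6- cells. Counts and shares of P6- cells below are over the passing P6- cells. Total counts ran from 956280 to 3332191 with a median of 1731608 in P6+ cells, and from 522188 to 3401372 with a median of 1500457 in passing P6- cells. A median of 4396 genes was detected in a P6+ cell and of 3432 in a P6- cell, and mitochondrial genes took medians of 1.29% and 3.56% of the reads. Sample names carried 8 plate prefixes, and all P6+ cells bore the same one, which only 11 passing P6- cells shared, so plate and tetramer binding can be told apart only through these 11 cells. The T cell genes Cd3d, Cd3e and Cd3g each had 10 or more reads in 28 of 32 P6+ cells, and in 73, 82 and 80 P6- cells. Markers of B cells, myeloid cells and NK cells (13 genes) were under 10 reads in every passing cell except Cd79b, in 2 P6+ cells, and Eomes, in 2 P6- cells, and the CD8 gene Cd8b1 and the plasma cell gene Sdc1 reached it in 2 P6- cells each. Prdm1, a plasma cell gene that T cells also express, reached it in 3 P6+ and 7 P6- cells. Of the genes that mark antigen experience or its absence, Cd44 had 10 reads in 11 of 32 P6+ and 30 P6- cells, and Ccr7 in 14 and 75, and the pooled levels of Ccr7, Lef1 and Cd69 were called lower in P6+ cells, although Cd69 was within 2-fold against the shared plate. Icos was found in 26 of 32 P6+ and 70 P6- cells, with intervals apart and pooled levels within 2-fold. Intervals lay apart for 8.42% of 6164 genes, and those of Icos overlapped on the shared plate.

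Every group of cells stands for 1 sample, so the cells of a group are no replicates and no p-values are given. Each gene is given as the share of cells with 10 or more reads, with its exact binomial 95% interval, and as the pooled level, the reads of the gene summed over the cells of a group in relation to all reads of those cells (cpm, per 1000000), with an exact Poisson 95% interval. Since Smart-Seq2 reads carry no identifier of the molecule they were copied from, and since sister cells of 1 clone share their origin, both kinds of interval cover counting error only. A pooled level was called higher or lower past a 2-fold ratio after adding 1 cpm to each group, where the mean of both groups was at least 10 cpm.

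For 2 of the 9 genes the sequence comes before the values. Mouse Bcl2a1 exists in near-identical copies on chromosome 9, and the coding sequences of Bcl2a1b and Bcl2a1d were 98.8% identical over 516 bases, while Bcl2a1a and Bcl2a1b were 97.9% identical. Only 12 of the 516 positions differed among the 3 copies, and 6 of these lie in the first 90 coding bases, which are shown because reads can be assigned to a copy only where such positions fall. Capitals mark the bases that differ among the copies (GENCODE M21 transcripts, GRCm38, coding strand):
Bcl2a1a, chr9:88957051-88957140, plus strand: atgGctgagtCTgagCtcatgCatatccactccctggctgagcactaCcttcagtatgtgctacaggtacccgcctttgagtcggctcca
Bcl2a1b, chr9:89199360-89199449, plus strand: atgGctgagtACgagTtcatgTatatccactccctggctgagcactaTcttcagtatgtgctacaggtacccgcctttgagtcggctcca
Bcl2a1d, chr9:88731630-88731719, minus strand: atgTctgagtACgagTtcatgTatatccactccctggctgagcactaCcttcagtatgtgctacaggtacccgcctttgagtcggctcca

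A stretch as long as 1 read (150 bases) occurred in another gene for 41.9% of the positions of the Bcl2a1b transcript and 30.3% of those of Bcl2a1d. For Bcl2a1b these other genes were Gm29094, Bcl2a1d and Bcl2a1a. Gm29094, listed at 0 reads in every passing cell, overlaps 49.1% of the exon bases of Bcl2a1b on the same strand. The 41.9% and the 49.1% thus cover in part the same bases. Under the counting used by the authors, a read inside both genes is given to neither, so the level of Bcl2a1b is uncertain and lowered by an amount that the counts do not give. For the other 7 genes at most 13.9% of such positions were shared, with overlaps on the opposite strand for Bak1 (Ggnbp1), Bid (Bcl2l13) and Bcl2 (D630008O14Rik). Bax shares 12.2% of its exon bases with Gm45808 on the same strand, so reads inside both are lost to Bax too. Whether counting used the strand is not given in the sources used here, so reads of these pairs could not be told apart. Counts per gene also do not separate isoforms of opposite function, such as the long and short forms of Bcl2l1 and Mcl1.

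Each of the 9 genes was under 10 reads in most cells. The share of all 161 passing cells with 10 or more reads ran from 1.86% for Bid to 22.4% for Bcl2a1d. Among the 15 P6- cells that did not pass, 0 reached 10 reads of any of the 9 genes. The lowest cell was at 0 for every gene in both groups, and the median cell was at or under 1.51 cpm.

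**Figure D1:**
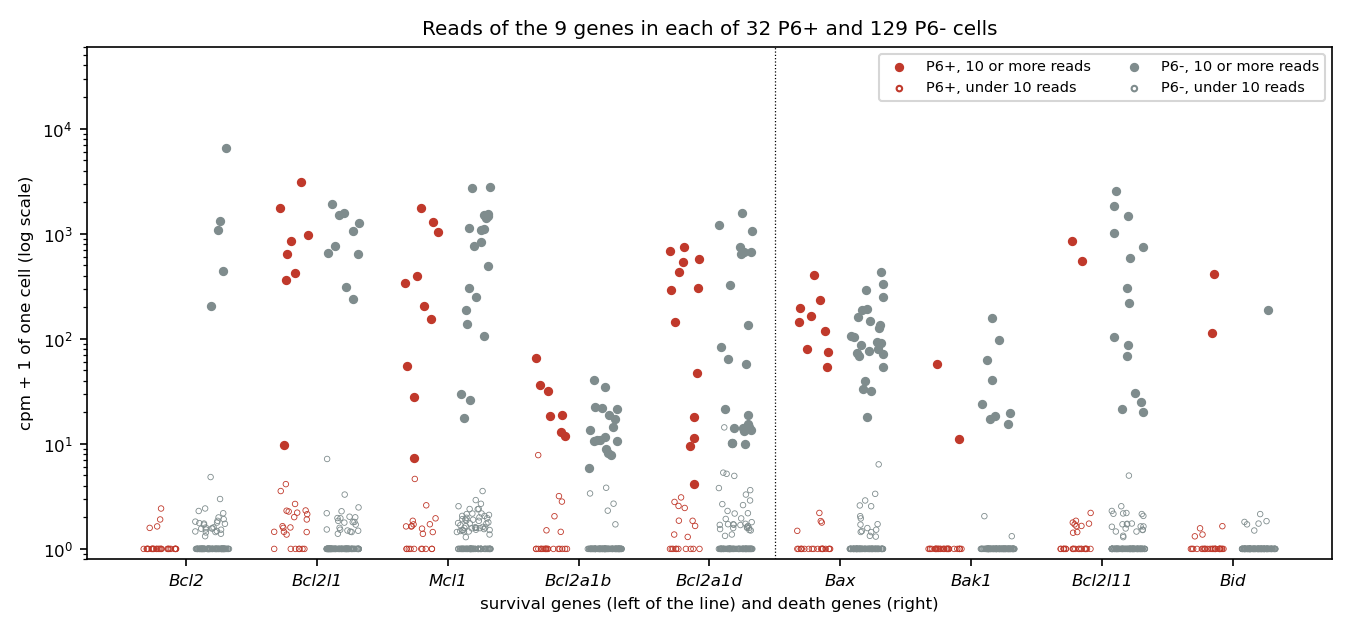
Level of each gene in each cell, as cpm + 1 on a log axis, for 32 P6+ cells (red) and the passing P6- cells (grey). Filled points have 10 or more reads and open points fewer, and most cells of each gene lie at the bottom, at or near 0.

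Bcl2 itself (chr1:106538178-106714274, minus strand), the founding survival gene of the family, had 10 or more reads in 0 of 32 P6+ cells, which allows a share of up to 9.38% by the 3 counts that a count of 0 allows, and of up to 10.9% by the exact interval. It had them in 5 P6- cells (3.88%, interval 1.27 to 8.81), on 5 different plates. Those 5 cells held from 206 to 6538 cpm, with a median of 1082 cpm, and 1 of them gave 70.5% of all Bcl2 reads of the group. The pooled level was 0.0843 cpm in P6+ cells (0.0274 to 0.197) and 74 cpm in P6- cells (72.8 to 75.2), a log2 ratio of -6.11 that was called lower. The share in P6- cells lies under both limits, so a difference in the share of cells was not detectable with 32 cells. The 11 P6- cells that shared the plate of the P6+ group had 10 reads in 0 cells, and their pooled level was 0.194 cpm.

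Bcl2l1 (chr2:152780668-152831728, minus strand) encodes Bcl-xL, a survival protein that activated T cells are known to make. It had 10 or more reads in 8 of 32 P6+ cells (25%, 11.5 to 43.4) and in 10 P6- cells (7.75%, 3.78 to 13.8). The 8 P6+ cells held 8.81, 363, 427, 638, 847, 979, 1766 and 3120 cpm, and the 10 P6- cells held 240 to 1923 cpm with a median of 911 cpm. Where the gene was found, the cells of both groups thus covered an overlapping range. The pooled level was 308 cpm in P6+ cells (303 to 312) and 82 cpm in P6- cells (80.8 to 83.3), a log2 ratio of 1.89 that was called higher. On no plate did P6- cells reach that share, since they ran from 0% to 15% over the 8 plates. Among the 11 P6- cells of the shared plate, 0 had 10 reads, and their pooled level of 0.194 cpm rested on 3 reads. The intervals of the share at 10 reads overlapped. At least 1 read of Bcl2l1 was found in 25 of 32 P6+ cells (78.1%, 60 to 90.7) against 32 of the P6- cells (24.8%, 17.6 to 33.2). The intervals at 1 read lay apart, as did those of 10.3% of 12025 genes at that limit, and Bcl2l1 was the only one of the 9 genes for which they did. On the shared plate 3 of 11 P6- cells had a read of Bcl2l1 (27.3%, 6.02 to 61), an interval that overlaps that of the P6+ cells, where 1.1% of 12035 genes had intervals apart. Counts of 1 to 9 reads made up 17 of the 25 P6+ cells, on the plate that held the cell with the most Bcl2l1 reads, and the part of reads from other wells in these low counts was not tested.

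Mcl1 (chr3:95658788-95663176, plus strand) encodes a short-lived survival protein that T cells are known to need. It had 10 or more reads in 10 of 32 P6+ cells (31.3%, 16.1 to 50) and in 20 P6- cells (15.5%, 9.73 to 22.9). The 10 P6+ cells ran from 6.27 to 1742 cpm with a median of 271 cpm, and the 20 P6- cells from 16.5 to 2783 cpm with a median of 800 cpm. More of the P6+ cells had the gene, but the median of those that had it was lower, and the pooled levels were close, at 149 cpm (146 to 152) and 136.9 cpm (135.3 to 138.5). Of the 11 P6- cells on the shared plate, 1 had 10 reads, with 189 cpm.

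Bcl2a1d (chr9:88723285-88731914, minus strand), a copy of A1, the survival gene that antigen receptor and NF-κB signals are known to induce, was the gene of the 9 found in the most P6+ cells. It had 10 or more reads in 13 of 32 P6+ cells (40.6%, 23.7 to 59.4) and in 23 P6- cells (17.8%, 11.7 to 25.5). The 13 P6+ cells ran from 3.17 to 750 cpm with a median of 291 cpm, and the 23 P6- cells from 8.94 to 1565 cpm with a median of 56.9 cpm. The 2 intervals of the share overlapped by little, between 23.7% and 25.5%. The pooled level was 135.6 cpm (132.6 to 138.6) against 56.2 cpm (55.2 to 57.2), a log2 ratio of 1.26 that was called higher, and 1 of 11 P6- cells on the shared plate had the gene, at 56.9 cpm. With each cell thinned to one depth the log2 ratio was 0.9995, and the call was lost. Bcl2a1b (chr9:89199209-89207827, plus strand) had 10 or more reads in 7 of 32 P6+ cells (21.9%, 9.28 to 40) and 18 P6- cells (14%, 8.48 to 21.2), at a lower level. Its highest cells held 65.1 cpm in the P6+ and 39.6 cpm in the P6- group, and its pooled levels of 7.25 and 2.23 cpm were under the minimum for a call.

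Of 25 passing cells with Bcl2a1b, 22 also had Bcl2a1d, and the 3 that did not had 6 to 9 reads of it. In these 22 cells the ratio of Bcl2a1d to Bcl2a1b reads fell into separate ranges. In 15 cells, 4 of them P6+, it lay between 0.245 and 1.9, with 10 to 45 reads of Bcl2a1d and 10 to 74 of Bcl2a1b. In the other 7 cells, 3 of them P6+, it lay between 11.5 and 127.5, with 251 to 2040 reads of Bcl2a1d and 13 to 153 of Bcl2a1b. A further 14 cells, 6 of them P6+, had 73 to 1472 reads of Bcl2a1d and under 10 of Bcl2a1b. Bcl2a1a had at least 1 read in 4 of the 15 cells with a ratio up to 1.9 (at most 2 reads) and in 7 of the 7 with high Bcl2a1d (at most 17). With the reads of the 4 copies, Bcl2a1c included, summed per cell, a calculation added after the values were seen, the share was 13 of 32 P6+ and 27 P6- cells.

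**Figure D2:**
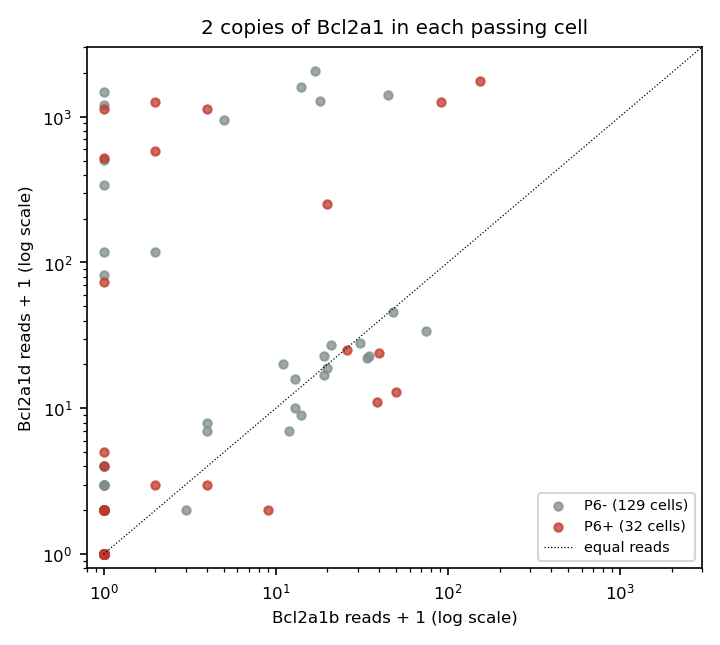
Reads of Bcl2a1b (x axis) and Bcl2a1d (y axis), each plus 1 on a log axis, in each passing cell. Cells around the dotted line of equal reads have at most 45 reads of Bcl2a1d, and the cells with more lie far above the line or at its left edge.

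The effector Bax (chr7:45461697-45466898, minus strand) was the death gene found in the most cells, with 10 or more reads in 9 of 32 P6+ cells (28.1%, 13.7 to 46.7) and 25 P6- cells (19.4%, 13 to 27.3). The 9 P6+ cells ran from 53.4 to 407 cpm with a median of 145 cpm, and the 25 P6- cells from 17 to 435 cpm with a median of 92.7 cpm. The groups overlapped over nearly the whole range, and the pooled levels of 42.2 cpm (40.5 to 43.9) and 24.6 cpm (24 to 25.3) were within 2-fold. Among P6- cells the plates themselves ran from 6.25% to 50% of cells with Bax, and 2 of 8 plates were at or above the share of P6+ cells. Bak1 (chr17:27019810-27029009, minus strand), the other effector, was rare and low, in 2 of 32 P6+ cells (10.2 and 56.8 cpm) and 9 P6- cells (14.5 to 157 cpm, median 22.9 cpm). Its pooled levels were 3.29 and 3.21 cpm.

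Bcl2l11 (chr2:128126038-128162547, plus strand), which encodes Bim, had 10 or more reads in 2 of 32 P6+ cells (6.25%, 0.766 to 20.8), at 553 and 851 cpm. It had them in 15 P6- cells (11.6%, 6.66 to 18.5), at 18.9 to 2541 cpm with a median of 219 cpm and on each of the 8 plates. Besides Bcl2 and Bak1, it was the only one of the 9 genes found in a smaller share of P6+ than of P6- cells, and the intervals overlapped. The pooled level of 35.6 cpm (34.1 to 37.1) against 72.4 cpm (71.3 to 73.6) gave a log2 ratio of -1.01, called lower by a narrow margin. The call was lost with no quality limits (-0.93), with a pseudocount of 10 cpm (-0.86), with the mean of the cells' own cpm (-0.66) and with each cell thinned to one depth (-0.67). On the shared plate, where 1 of 11 P6- cells had the gene at 585 cpm, the P6- level was 39.9 cpm and the log2 ratio -0.16, which was 4.04 without the highest cell of each group. Bid (chr6:120891930-120916853, minus strand), the BH3-only protein that links death receptors to the mitochondrion once caspase-8 cuts it, was in 2 of 32 P6+ cells (113.6 and 416 cpm) and 1 P6- cell (186 cpm). Its pooled levels of 11.7 and 1.37 cpm had a mean under the minimum for a call.

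**Figure D3:**
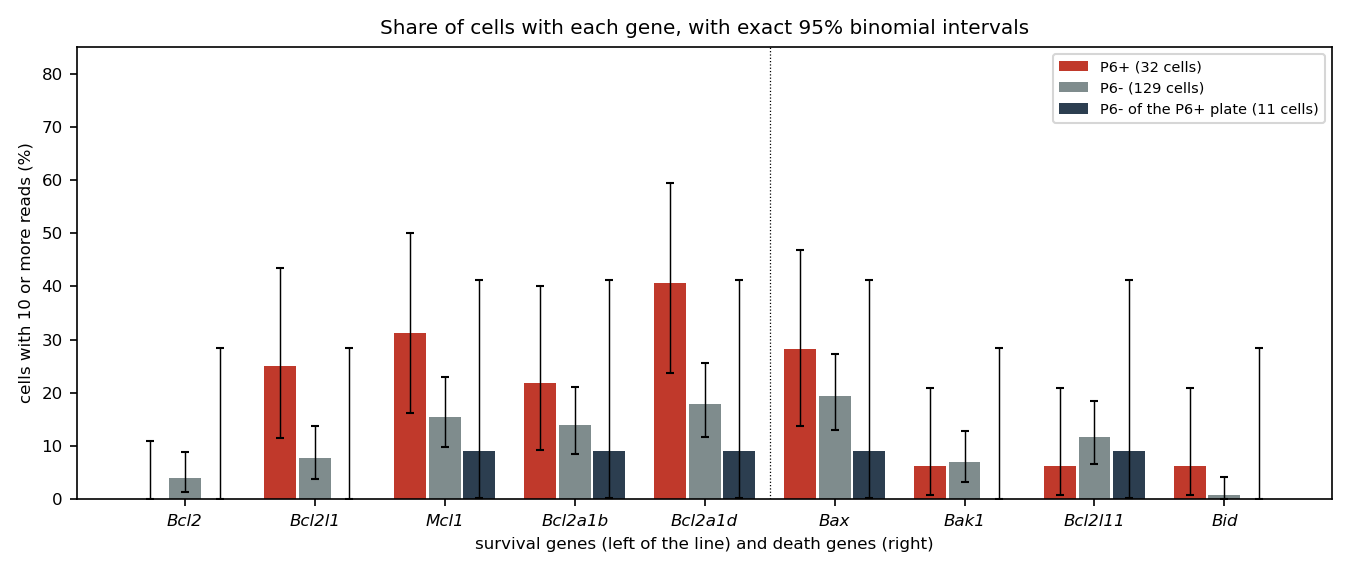
Share of cells with 10 or more reads of each gene in P6+ cells (red), passing P6- cells (grey) and the 11 P6- cells of the P6+ plate (dark), with exact 95% binomial intervals as bars. The share is higher in P6+ than in P6- cells for 6 of the 9 genes, and every pair of intervals overlaps.

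Over the 9 genes, 6 passed the minimum of 10 cpm, of which Bcl2l1 and Bcl2a1d were called higher and Bcl2 and Bcl2l11 lower in P6+ cells. Of all 7807 genes tested, 23.8% were called higher and 26.2% lower, so 2 of 6 each way is near the background. The share of cells was higher in P6+ cells for 5 of the 7 members with 10 reads in at least 5% of cells (all but Bcl2 and Bid), where 77.3% of 6164 genes past that limit were higher. The intervals of the share lay apart for 8.42% of those genes and for 0 of the 7. On the shared plate, Bcl2l1, Mcl1 and Bcl2a1d of 5 genes tested were called higher and 0 lower, against 46.7% higher and 25.2% lower of 6958 genes, whose median log2 ratio was 0.70. The intervals lay apart for 0.69% of 6518 genes there and for 0 of the 6 members past the limit. With each cell thinned to 522192 reads, the share was 7 of 32 P6+ cells for Bcl2l1, 9 for Mcl1 and 10 for Bcl2a1d, against 10, 20 and 14 P6- cells, and the intervals lay apart for 0 of the members past the limit and 7.78% of 5465 genes.

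Pooled levels were also given per kilobase over all exons of a gene. This adjusts for length, but not for which transcripts are present or for reads lost to copies and overlapping genes. On this scale Bcl2a1d had the highest pooled level of the 9 in both groups. It stood at 157 cpm per kb in P6+ and 65.1 cpm per kb in P6- cells. In P6+ cells it was followed by Bcl2l1 (67.1 cpm per kb), Mcl1 (43.5) and Bax (26.8). In P6- cells Mcl1 (40 cpm per kb) came second, before Bcl2l1 (17.9) and Bax (15.6). Bcl2 stood at 0.00920 cpm per kb in P6+ and 8.08 cpm per kb in P6- cells, and Bak1 at 1.37 and 1.33 cpm per kb. These orders rest on few cells a gene, and the spread over animals is not known.

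Read per cell, 25 of 32 P6+ cells had at least 1 of the 9 genes at 10 reads (78.1%, 60 to 90.7), against 73 P6- cells (56.6%, 47.6 to 65.3) and 5 of 11 on the shared plate. At least 1 survival gene was found in 21 P6+ cells (65.6%, 46.8 to 81.4) and 51 P6- cells (39.5%, 31 to 48.5), and at least 1 death gene in 14 (43.8%, 26.4 to 62.3) and 42 (32.6%, 24.6 to 41.4). Intervals overlapped in each of these comparisons. Both kinds occurred together in 10 P6+ and 20 P6- cells, survival genes alone in 11 and 31, and death genes alone in 4 and 22. The number of the 9 genes in a cell had a median of 2 in P6+ and 1 in P6- cells, and at most 4, in 1 P6+ and 3 P6- cells. That P6+ cell had 5178 reads of Bcl2l1, 1266 of Bcl2a1d, 158 of Mcl1 and 90 of Bcl2a1b, all of them survival genes. Genes per cell moved with these counts: the number of the 9 genes and the number of all genes in a cell had a Spearman rho of 0.32 over the 161 cells, 0.21 within P6+ and 0.25 within P6- cells, a description over cells of 1 experiment, and more genes were detected in P6+ cells.

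**Figure D4:**
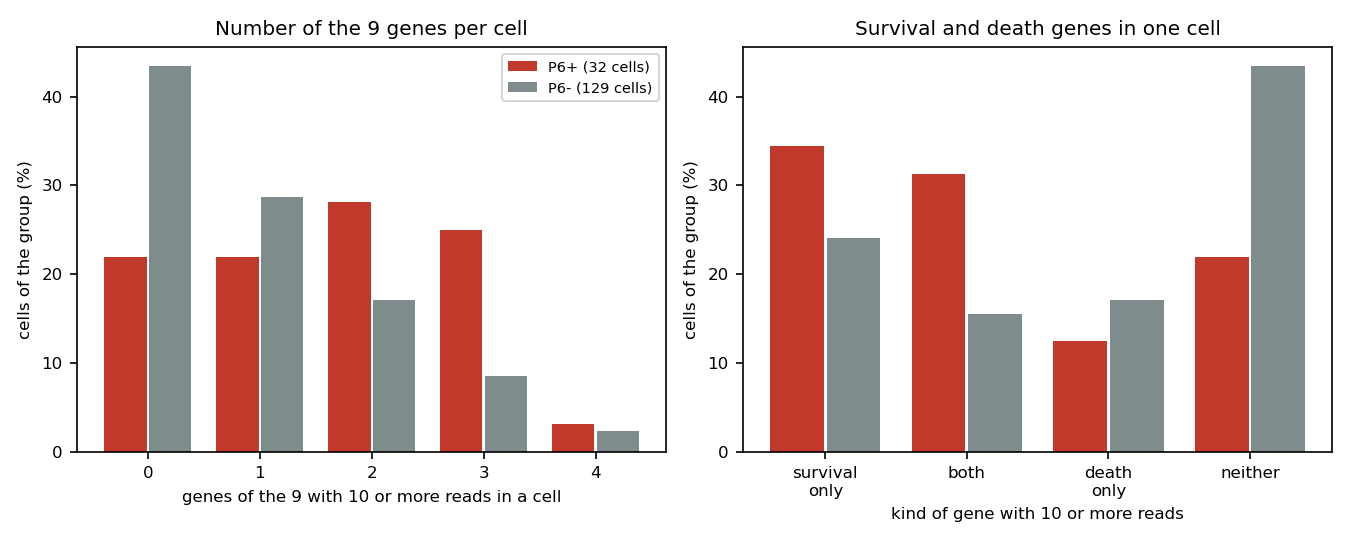
Left, share of P6+ (red) and P6- (grey) cells by the number of the 9 genes with 10 or more reads. Right, share of cells with survival genes only, both kinds, death genes only or neither. No cell has more than 4 of the genes, and 7 of 32 P6+ and 56 P6- cells have none.

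The survival gene with the most reads per kilobase of exon, among those with 10 or more reads, differed from cell to cell. Reads lost to copies and overlapping genes affect this order. Among the 21 P6+ cells with a survival gene, Bcl2a1d led in 7, Bcl2l1 and Mcl1 in 5 each, Bcl2a1b in 4 and Bcl2 in 0. Among the 51 P6- cells, Mcl1 led in 17, Bcl2a1d in 15, Bcl2a1b in 10, Bcl2l1 in 6 and Bcl2 in 3. Of the 36 pairs of genes, 7 never met in a passing cell, but for each of these the product of the 2 shares gives under 1 cell (0.0932 to 0.776), and 20 pairs met in more cells than that product gives. After the Bcl2a1 copies the most frequent pair, Bcl2a1d with Bax, met in 9 cells where the product of their shares over all 161 cells gives 7.60. Taken within the groups, that pair met in 2 P6+ cells, where the product gives 3.66, and in 7 P6- cells, where it gives 4.46. Bcl2l1 and Bcl2a1d met in 4 cells of each group, where the products give 3.25 and 1.78.

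Foxp3, the transcription factor of regulatory T cells, was nearly all or nothing in these cells. Below the limit of 10 reads P6+ cells had at most 4 reads and P6- cells at most 2, and above it P6+ cells had 22 to 4166 and P6- cells 37 to 7737. Cells with 10 or more reads, called cells with Foxp3 here, were 11 of 32 P6+ and 19 P6- cells. These are cells grouped by a measured count, not by a label, and a regulatory T cell whose Foxp3 was missed falls among the others. In P6- cells Il2ra, the IL-2 receptor chain of regulatory T cells, had 10 reads in 8 of 19 cells with Foxp3 and 11 of 110 without. The intervals lay apart, as did those of 1.57% of 5989 genes. In P6+ cells Il2ra had 10 reads in 7 of 11 and 5 of 21, with intervals that overlapped and pooled levels within 2-fold. The B cell gene Cd79b had 10 reads in 2 of 11 P6+ cells with Foxp3 and 0 of 21 without, with intervals that overlapped.

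In P6+ cells Bcl2a1d had 10 or more reads in 2 of 11 cells with Foxp3 (18.2%, 2.28 to 51.8) and 11 of 21 without (52.4%, 29.8 to 74.3), with intervals that overlapped. Its pooled level was 62.9 cpm (59.3 to 66.6) against 168 cpm (164 to 172), a log2 ratio of -1.40 that was called lower, and without the highest cell of each group the log2 ratio was -5.84. The shares were closer at a limit of 1 read. At least 1 read of Bcl2a1d was found in 7 of 11 cells with Foxp3 (63.6%) and 15 of 21 without (71.4%), and with cells split at 1 read of Foxp3 the log2 ratio was -0.18, within 2-fold. Bcl2a1b had 10 reads in 1 of 11 and 6 of 21 cells, and 1 read in 4 of 11 and 9 of 21. Bcl2l1 was in 3 of 11 (27.3%) and 5 of 21 (23.8%), Mcl1 in 4 of 11 (36.4%) and 6 of 21 (28.6%), and Bax in 3 of 11 (27.3%) and 6 of 21 (28.6%), all with pooled levels within 2-fold. For Bcl2l1 this depended on the setting, since its log2 ratio of -0.89 was -1.68 without the highest cell of each group, -2.59 with cells split at 100 reads of Foxp3 and 0.35 with cells split at 1 read. Bcl2l11, Bak1 and Bid were each in 1 cell of either kind. The log2 ratio of Bcl2l11 was 0.85, within 2-fold, and 1.51 with the mean of the cells' own cpm. Bid was called higher at 26.8 against 5.01 cpm from 1 cell of each kind, and without the highest cell of each group its log2 ratio was -0.02. Of 6 genes tested, 1 was called higher and 1 lower, beside 26.7% and 37% of 7037 genes whose median log2 ratio was -0.27. Intervals of the share lay apart for 0 of the 8 members past the limit on cells and 0.378% of 7402 genes.

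In P6- cells, 4 genes found in cells without Foxp3 had 10 reads in 0 of the 19 cells with it, which allows a share of up to 15.8% by 3 counts and of up to 17.6% by the exact interval. Bcl2l11 was in 15 of 110 cells without Foxp3 (13.6%, 7.84 to 21.5), Bcl2l1 in 10 of 110 (9.09%, 4.45 to 16.1) Bcl2 in 5 of 110 (4.55%, 1.49 to 10.3) and Bid in 1 of 110 (0.909%). Each of these shares lies under both limits, so no difference in the share of cells was detectable with 19 cells. The pooled levels in cells with Foxp3 were 0.136 cpm for Bcl2l11 and for Bcl2l1 and 0.237 cpm for Bcl2, from 4, 4 and 7 reads, against 84.7, 95.9 and 86.5 cpm, and all 3 were called lower, while Bid (0.0678 and 1.59 cpm) was under the minimum. Bax was found in 6 of 19 cells with Foxp3 (31.6%, 12.6 to 56.6) and 19 of 110 without (17.3%, 10.7 to 25.7), and its pooled level of 55.6 cpm (53 to 58.4) against 19.4 cpm (18.8 to 20.1) was called higher, with a log2 ratio of 1.47. Mcl1 was in 3 of 19 (15.8%) and 17 of 110 cells (15.5%), at 184 and 128.9 cpm. Bcl2a1d was in 4 of 19 (21.1%) and 19 of 110 (17.3%), and its pooled level of 19.1 against 62.5 cpm was called lower. With P6- cells split at 1 read of Foxp3, Bax was within 2-fold (log2 0.75), Mcl1 was called higher (1.21), and the ratios of Bcl2l1 (0.93) and Bcl2a1d (0.95) turned positive. Of 6 genes tested, 1 was called higher and 4 lower, beside 25.2% and 33.3% of 7418 genes, with a median log2 ratio of -0.13 over them, and intervals lay apart for 0 of the 7 members past the limit on cells and 1.57% of 5989 genes.

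**Figure D5:**
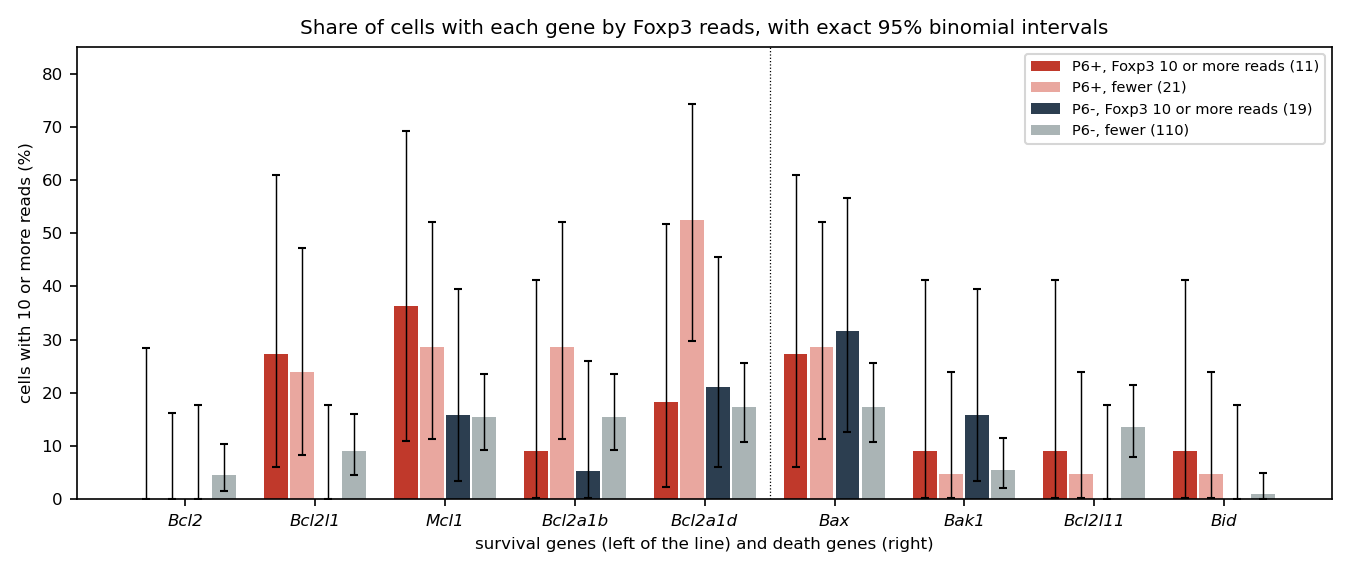
Share of cells with 10 or more reads of each gene by Foxp3 reads, in P6+ cells (red with Foxp3, pink without) and P6- cells (dark with Foxp3, grey without), with exact 95% binomial intervals as bars. Bcl2a1d is found in 18.2% of P6+ cells with Foxp3 and 52.4% without, and in 21.1% and 17.3% of P6- cells. Within P6+ and within P6- cells every pair of intervals overlaps. Differences between P6+ and P6- kinds were not set against those of all genes.

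Whether the Foxp3 ratios differ between P6+ and P6- cells was not tested, since each group is 1 sample. In the cells with Foxp3, Bcl2l1 was found in 3 of 11 P6+ and 0 of 19 P6- cells. The intervals of 6.02 to 61% and 0 to 17.6% overlapped. Mcl1, Bcl2a1b, Bcl2l11 and Bid also had a larger share in P6+ cells, and Bax, Bak1 and Bcl2a1d a smaller one. Bcl2 reached 10 reads in neither group. These shares were not set against those of all genes, and all P6+ cells bore 1 plate prefix.

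The other genes of the family were taken from lists of 3 further survival genes, 1 effector, 6 BH3-only genes and 5 others. Bcl2l2, Bcl2l10 and Bcl2l14 had 0 reads in passing cells, and Bok, Bmf, Bik and Hrk had 10 reads in 0 cells. Bbc3 (Puma), a BH3-only gene that p53 is known to induce, had 10 reads in 5 of 32 P6+ cells (15.6%, 5.28 to 32.8) and 5 P6- cells (3.88%, 1.27 to 8.81), and its pooled level was called higher at 40 against 18.5 cpm. Pmaip1 (Noxa), a BH3-only gene that binds Mcl1, had them in 6 of 32 P6+ cells (18.8%) and 9 P6- cells (6.98%), at 100.7 and 51.2 cpm. Bad, a BH3-only gene that growth signals are known to switch off by phosphorylation of its protein, had them in 3 and 4 cells and was called lower at 9.77 against 37.2 cpm. Of the 8 BH3-only genes, 4 were tested, with 1 called higher and 2 lower. Against the P6- cells of the shared plate, 3 were tested, with Bbc3 and Pmaip1 called higher and 0 lower, and Bad was listed at 0 reads in those cells. Of the 8 survival genes, 4 were tested, with 2 called higher and 1 lower, beside the 23.8% and 26.2% of all genes, and the median log2 ratio over the 8 was 0.41. In the comparison with the shared plate 3 of 3 tested survival genes were called higher, beside 46.7% of all genes.

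Of 15 further genes of the apoptosis machinery (caspases, their activators and inhibitors, and death receptor genes), 13 were tested, with 1 called higher and 5 lower in P6+ cells and a median log2 ratio of -0.46, beside 23.8% higher and 26.2% lower of all genes. Against the P6- cells of the shared plate the split was the other way, with 8 called higher and 2 lower of 12 tested and a median log2 ratio of 1.04 over the 15, beside 46.7% and 25.2% of all genes there. Cflar, which encodes c-FLIP, the inhibitor of caspase-8, was found in 16 of 32 P6+ cells (50%, 31.9 to 68.1) and 22 P6- cells (17.1%, 11 to 24.7), with intervals apart but with pooled levels of 161 and 163 cpm. It was the only gene of these 15 with intervals apart, beside 8.42% of all genes. On the shared plate, it was in 2 of 11 P6- cells, whose interval of 2.28 to 51.8% overlapped that of the P6+ cells. The genes called lower on all plates were Birc3 (76.9 against 325 cpm) and Birc2 (82 against 180 cpm), inhibitors of apoptosis, Casp8 (71.5 against 161 cpm), Apaf1 (4.5 against 47.5 cpm), which assembles the apoptosome, and Htra2 (11.5 against 27.4 cpm). Of these 5, only Apaf1 was also called lower against the shared plate (138.5 cpm in its P6- cells). There Birc3 (36.8 cpm) and Casp8 (8.74 cpm) were called higher in P6+ cells, Birc2 (41.5 cpm) was within 2-fold, and Htra2, listed at 0 reads, was under the minimum. Fadd, the adaptor of death receptors, was called higher (71 against 17.6 cpm), in 3 P6+ and 6 P6- cells.

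Of 6 genes of the cytokine signals that T cells are known to live on, 6 had a higher share of cells in P6+ cells, as did 77.3% of 6164 genes. Il2rb, the IL-2 and IL-15 receptor chain, was found in 23 of 32 P6+ cells (71.9%, 53.3 to 86.2) and 57 P6- cells (44.2%, 35.5 to 53.2), with intervals apart, and was called higher at 1277 against 520 cpm. Of all genes tested, 8.42% had intervals apart and 23.8% were called higher. Il7r, the IL-7 receptor, was found in 13 of 32 P6+ cells (40.6%) and 34 P6- cells (26.4%), and its pooled level was called lower at 134.6 against 391 cpm. Among the P6- cells of the shared plate, Il2rb was in 5 of 11 and Il7r in 2 of 11, and the level of Il2rb (793 cpm) was within 2-fold of that in P6+ cells, with intervals of the share that overlapped. Share and pooled level thus pointed in opposite directions for Il7r.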

How the data were processed

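Single CD4 T cells were profiled by Smart-Seq2 with 150-base paired-end reads. The authors checked reads with FastQC 0.11.7, mapped them with STAR 2.6.0a to GRCm38 with Ensembl annotation, sorted alignments with SAMtools 0.1.19, and deposited STAR's raw count for each gene and cell, with no normalization and no cell left out. A read that STAR places at several sites, or inside several genes, is not counted there.

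Counts of rows with the same name were averaged, as in the study. Cells were kept at 500000 reads, 2000 genes and under 10% mitochondrial reads. The study also filtered on the mapping rate, which the counts do not hold, so more P6- cells passed here than there. No doublet caller was run, since each well had received 1 sorted cell. Groups followed the tetramer labels and, within them, Foxp3 reads. Total counts ran from 522188 to 3401372 per passing cell, and a count of 0 allows 3 counts, also for cells, beside which the exact interval is given. Counts were summed per group and given as cpm, and log2 ratios used a pseudocount of 1 cpm. Background shares of pooled levels cover all genes with a mean of at least 10 cpm, and those of the share of cells all genes with 10 reads in at least 5% of cells, and the 9 genes were held to both limits. Ratios were tested on counts simulated with counting error alone. These lacked the spread between cells seen here, so the test covers the calculation and not the calls.

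The 9 genes, the further gene lists and the limits were chosen with earlier results of these data known. Genes of the family, apoptosis and cytokine lists were named where past 2-fold or with intervals apart on all plates, or to account for a list, and marker lists were only summarised. Genes alike in pattern were to be named for members with 10 reads in at least 25% of cells, which 0 of the 9 reached. Gene models, transcripts and sequences came from GENCODE M21 (GRCm38), which may differ in places from the annotation used for counting. Alternatives changed the quality limits, pooling, pseudocount, scaling (TMM of edgeR 4.0.16, size factors of DESeq2 1.42.0, on pooled sums with no test), depth, the highest cell, row names, the Foxp3 limit, the minimum level and the detection limit. Python 3.11.15, numpy 2.4.6, pandas 2.3.3, scipy 1.17.1 and R 4.3.3 were used. No protein sequences were used here. A few genes of the lists are not reported here.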

Additional observations from a re-analysis of the deposited data

How the results depend on the processing

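No paired analysis was possible because each group of cells is 1 sample and no test was made. Of 44 recounts of the genes called past 2-fold, 38 stayed within 1.5 times. Between P6+ and P6- cells on all plates, 4 of the 9 genes were called, and 2 with each cell thinned to one depth, where Bcl2a1d and Bcl2l11 (log2 -0.67 for the latter) fell under the limit. Bcl2l11 alone fell under it, leaving 3 called, with no quality limits (-0.93), with the mean of the cells' own cpm (-0.66) and with a pseudocount of 10 cpm (-0.86). On the shared plate 3 were called, and 6 with no minimum level. By Foxp3 in P6+ cells 2 were called, 1 with a Foxp3 limit of 1 read, 4 with a limit of 100 reads and 4 with no minimum level. By Foxp3 in P6- cells 5 were called, and 3 with a limit of 1 read, where the log2 ratios of Bcl2l1 (0.93) and Bcl2a1d (0.95) changed sign, Bax was no longer called (0.75) and Mcl1 was (1.21). The log2 ratio of Bid by Foxp3 in P6+ cells was -0.024 without the highest cell of each group. These 3 were the only changes of sign of a called ratio among 396 recomputed ratios.

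Single cells decided many pooled levels. Without the highest cell of each group, the log2 ratio of P6+ to P6- cells was -0.44 for Mcl1 where it had been 0.12, and on the shared plate it was 4.04 for Bcl2l11 and 4.49 for Bax. With 11 to 32 cells in the smaller groups, shares are known only within wide intervals, and the spread between animals is unknown, with all P6+ cells from 1 mouse and the mouse of the P6- cells not named. TMM and DESeq2 factors changed none of the 4 counts.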
